A study of Mus musculus with 9 samples.

Results

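The IL-36 cytokine group and its receptor comprised 6 of the 52550 genes in the count table, taken by their symbols Il1f5, Il1f6, Il1f8, Il1f9, Il1f10 and Il1rl2. All 6 were found under these symbols and all 6 passed the filter on low counts. The libraries came from ear dermis of wild type C57BL/6 mice (C57BL/6J in the methods) aged 8 weeks, with 3 libraries in each of 3 groups. VAS+H2O mice had vaseline on the ear for 5 days and 200 μl of ddH2O by gavage for 10 days. IMQ+H2O mice had imiquimod cream, an agonist of Toll-like receptor 7 that induces psoriasis-like dermatitis, with the same gavage of ddH2O. IMQ+XYF mice had imiquimod cream and a gavage of 200 μl of Xiao-Yin-Fang (XYF, 23.3 mg/g), a decoction of Chinese herbs. The methods give male mice and RNA from dermal ear sheets of a pair of mice, fewer than the 3 libraries of a group. The study's figure legends give n = 3 for each group of this sequencing. Libraries may thus share or pool animals, which these sources do not settle. The p-values therefore measure the spread between these libraries, which may be partly technical.

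IL-36 cytokines belong to the IL-1 family and are made mainly by keratinocytes and other barrier epithelia. Il1f6, Il1f8 and Il1f9 encode the agonists IL-36α, IL-36β and IL-36γ, and Il1f5 encodes the IL-36 receptor antagonist. Il1rl2 encodes the receptor chain, which pairs with Il1rap and signals through Myd88, IRAK kinases and NF-kB. Il1f10 encodes IL-38, a related cytokine described as a dampener of inflammation. The proteins are secreted without a signal peptide and gain activity when proteases trim their N-terminus. In skin, the agonists are known from psoriasis, and loss of the antagonist causes a generalized pustular form of the disease.

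The 5 cytokine genes lie within 140.66 kb of mouse chromosome 2 (GRCm38, GENCODE vM21), all on the plus strand. In order along the chromosome, Il1f8 spans chr2:24153161-24160519, Il1f9 chr2:24186476-24193568 and Il1f6 chr2:24215418-24225702. Il1f5 spans chr2:24276954-24283426 and Il1f10 chr2:24291196-24293820. None of the 5 overlaps another annotated gene. Il1rl2 spans chr1:40324610-40367562 on the plus strand and overlaps only the processed pseudogene Gm17970.

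Promoter sequences from RefSeq (GRCm38.p6) were matched for 5 of the 6 genes, in 6 windows of 250 bases before a start site. Il1f6 was not among them. The agonists Il1f8 and Il1f9 and the receptor are shown, as the results on the agonist ratio and on the receptor turn on them. The windows are chr2:24152922-24153171, chr2:24186226-24186475 and chr1:40324339-40324588, all on the plus strand and written 5′ to 3′. The RefSeq start of Il1f8 lies a few bases inside the first exon of GENCODE. Capitals mark matches to 1 of 4 motifs, searched on both strands.
Il1f8 promoter: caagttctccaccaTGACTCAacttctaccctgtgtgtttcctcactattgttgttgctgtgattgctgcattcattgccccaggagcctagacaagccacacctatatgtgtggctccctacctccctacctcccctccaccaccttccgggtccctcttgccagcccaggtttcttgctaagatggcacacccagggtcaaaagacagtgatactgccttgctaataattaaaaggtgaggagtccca
Il1f9 promoter: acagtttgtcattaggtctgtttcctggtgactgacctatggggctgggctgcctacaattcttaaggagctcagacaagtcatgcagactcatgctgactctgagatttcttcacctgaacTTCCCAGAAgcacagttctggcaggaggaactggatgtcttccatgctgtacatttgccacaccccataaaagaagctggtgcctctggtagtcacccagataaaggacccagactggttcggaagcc
Il1rl2 promoter: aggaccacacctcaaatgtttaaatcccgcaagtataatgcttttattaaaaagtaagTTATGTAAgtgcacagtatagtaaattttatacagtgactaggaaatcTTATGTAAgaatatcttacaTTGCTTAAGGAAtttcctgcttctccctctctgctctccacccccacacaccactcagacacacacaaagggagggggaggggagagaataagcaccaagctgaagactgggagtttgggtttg
The capitals in the Il1f8 window are an AP-1 match (TGANTCA), the motif of Fos and Jun dimers, at -236 to -230 from the start. A match to AP-1 was present in 6.75% of all 32851 promoter windows. The Il1f9 window held a STAT match (TTCNNNGAA) at -128 to -120, a motif found in 7.02% of all windows. The Il1rl2 window held 4 matches to the C/EBP motif (TTNNGNAA), at -192, -144, -124 and -120 (first base), the last pair overlapping. That motif was present in 36.8% of all windows. The NF-kB motif, found in 7.25% of all windows, matched in none of the 6 windows of these genes. Among the windows not shown, those of Il1f5 held 1 C/EBP and 1 STAT match and that of Il1f10 held 4 C/EBP matches. A match describes letters only and does not show that a factor binds there.

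Libraries held between 28756305 and 79836881 counts, and expression is given in CPM, the count relative to a library size adjusted by TMM factors. edgeR's quasi-likelihood test was fitted on the 22430 genes that passed the filter. Calls required a Benjamini-Hochberg adjusted p of at most 0.05 together with a log2 fold change of at least 1 in either direction. Markers of dermal fibroblasts were abundant in every library, with 6 markers summing to between 10367 and 25353 CPM. Keratinocyte markers were present too, and Krt14, a keratin of the basal epidermis, ranged from 724 to 3367 CPM. In bulk tissue, fewer cells of a type and less RNA per cell cannot be told apart.

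None of the 6 genes was called in any of the 3 comparisons. Across all genes tested, edgeR called 0.994% between IMQ+H2O and VAS+H2O, 0.00892% between IMQ+XYF and IMQ+H2O, and 1.20% between IMQ+XYF and VAS+H2O. At an unadjusted p under 0.05, 0, 0 and 1 of the 6 genes passed, against 20.9%, 11.7% and 18.3% of all genes tested. DESeq2 called 0, 0 and 1 of them, against 3.80%, 1.17% and 3.23% of the genes it tested. The plot of levels by library shows how much the replicates varied.

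**Figure D1:**
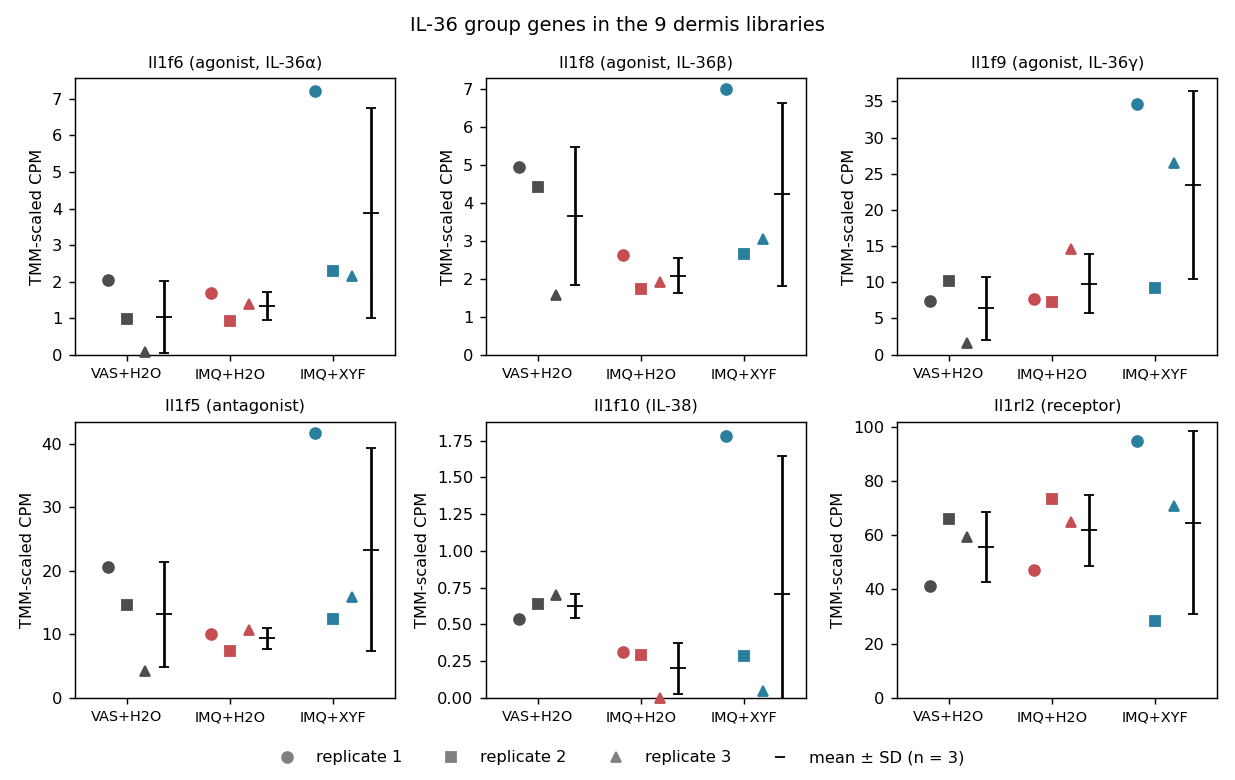
TMM-scaled CPM of each gene in the 9 libraries, by group; symbols are replicates and black bars are the mean ± SD of 3 libraries, with the bar of Il1f10 in IMQ+XYF running past 0. The first IMQ+XYF library is the highest of all 9 for each of the 6 genes.

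The agonist IL-36γ, encoded by Il1f9, had the highest level per kilobase of the cytokine genes in every library with imiquimod. Its level was 7.45, 10.2 and 1.61 CPM in VAS+H2O, 7.68, 7.23 and 14.6 CPM in IMQ+H2O, and 34.6, 9.25 and 26.5 CPM in IMQ+XYF. IMQ+XYF libraries 1 and 3 stood above the other 7, while library 2 lay within the range of VAS+H2O, so that the groups overlapped in every comparison. The group means were 6.41 ± 4.38, 9.83 ± 4.11 and 23.5 ± 13.0 CPM (SD, n = 3). Il1f9 was 3.69-fold higher in IMQ+XYF than in VAS+H2O, a log2 fold change of 1.88 ± 0.68 (SE) with a 95% interval from 0.34 to 3.42. In edgeR this gave an unadjusted p of 0.0219 and an adjusted p of 0.183, which did not pass. DESeq2 gave a log2 fold change of 1.91 with an adjusted p of 0.0324 and was the only setting tried under which any of the 6 genes was called. Over the other alternatives, including each library left out in turn, the edgeR value lay between 1.42 and 2.39. IMQ+H2O against VAS+H2O gave 0.63 ± 0.66, and IMQ+XYF against IMQ+H2O gave 1.25 ± 0.66, with edgeR adjusted p of 0.622 and 0.482.

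Il1f6, the gene of IL-36α, was expressed at a lower level. It had 2.04, 0.973 and 0.0804 CPM in VAS+H2O, 1.69, 0.922 and 1.38 CPM in IMQ+H2O, and 7.20, 2.28 and 2.16 CPM in IMQ+XYF. Every IMQ+XYF library was above the 6 libraries of the other groups, and VAS+H2O library 3, with 6 counts, was the lowest of all. Il1f6 was 2.93-fold higher in IMQ+XYF than in IMQ+H2O, which was 1.55 ± 0.88 on the log2 scale with an edgeR adjusted p of 0.503. Against VAS+H2O the log2 fold change was 1.95 ± 0.89, with an edgeR adjusted p of 0.289. That value was 2.98 without VAS+H2O library 1 and 1.13 without IMQ+XYF library 1. Between IMQ+H2O and VAS+H2O it was 0.39 ± 0.89, a value that turned to -0.19 without VAS+H2O library 3.

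Il1f8, the gene of IL-36β, followed another order. Its level was 4.95, 4.42 and 1.58 CPM in VAS+H2O, 2.62, 1.72 and 1.91 CPM in IMQ+H2O, and 7.01, 2.64 and 3.04 CPM in IMQ+XYF. The IMQ+H2O libraries were all below those of IMQ+XYF, by a margin of hundredths of a CPM at the nearest pair, and below the first and second of VAS+H2O. The log2 fold change was -0.81 ± 0.50 for IMQ+H2O against VAS+H2O, with an edgeR adjusted p of 0.385. For IMQ+XYF against IMQ+H2O it was 1.03 ± 0.50, a 2.04-fold higher level with an edgeR adjusted p of 0.452. IMQ+XYF and VAS+H2O differed by 0.22 ± 0.49, with a 95% interval from -0.88 to 1.33.

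Il1f5, the gene of the receptor antagonist, had 20.6, 14.6 and 4.26 CPM in VAS+H2O, 9.99, 7.45 and 10.6 CPM in IMQ+H2O, and 41.7, 12.5 and 15.9 CPM in IMQ+XYF. The IMQ+XYF libraries did not overlap with those of IMQ+H2O, and VAS+H2O overlapped with both. Il1f5 was 2.5-fold higher in IMQ+XYF than in IMQ+H2O, which was 1.32 ± 0.59 on the log2 scale with a 95% interval from -0.02 to 2.67. Its unadjusted p of 0.0531 in edgeR was the lowest of the 6 genes in that comparison, with an adjusted p of 0.428. The other comparisons gave -0.49 ± 0.59 for IMQ+H2O against VAS+H2O and 0.83 ± 0.58 for IMQ+XYF against VAS+H2O. Leaving out 1 library at a time, the first ranged from -0.92 (without VAS+H2O library 3) to -0.01 (without VAS+H2O library 1), and the other from 0.11 (without IMQ+XYF library 1) to 1.32 (without VAS+H2O library 1).

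Il1f10, the gene of IL-38, was close to the limit of detection. Its counts were 22, 23 and 52 in VAS+H2O, 9, 12 and 0 in IMQ+H2O, and 143, 14 and 3 in IMQ+XYF. The count of 0 allowed up to 0.0585 CPM at the depth of that library. In CPM the values were 0.534, 0.639 and 0.697 in VAS+H2O, 0.310, 0.291 and 0 in IMQ+H2O, and 1.78, 0.285 and 0.0487 in IMQ+XYF. Every IMQ+H2O library was below every VAS+H2O library, while IMQ+XYF held both the highest value and 1 of the lowest. The log2 fold change for IMQ+H2O against VAS+H2O was -1.70 ± 1.26, with an edgeR adjusted p of 0.469 and a 95% interval from -4.58 to 1.17. Without the first IMQ+XYF library, the value for IMQ+XYF against IMQ+H2O turned from 1.90 ± 1.25 to -0.23.

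Il1rl2, the receptor gene, had the smallest log2 fold change of the 6 in both comparisons that involve IMQ+H2O. Its level was 41.3, 66.1 and 59.4 CPM in VAS+H2O, 47.4, 73.3 and 64.8 CPM in IMQ+H2O, and 94.9, 28.2 and 70.8 CPM in IMQ+XYF. The lowest and the highest of the 9 values were both in IMQ+XYF, and the groups overlapped throughout. The log2 fold changes were 0.15 ± 0.39, 0.07 ± 0.39 and 0.22 ± 0.39 in the 3 comparisons, with edgeR adjusted p of 0.849, 0.959 and 0.828. Their 95% intervals ran from -0.73 to 1.03, from -0.81 to 0.95 and from -0.66 to 1.10, so that differences of up to about 2-fold remained within them.

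**Figure D2:**
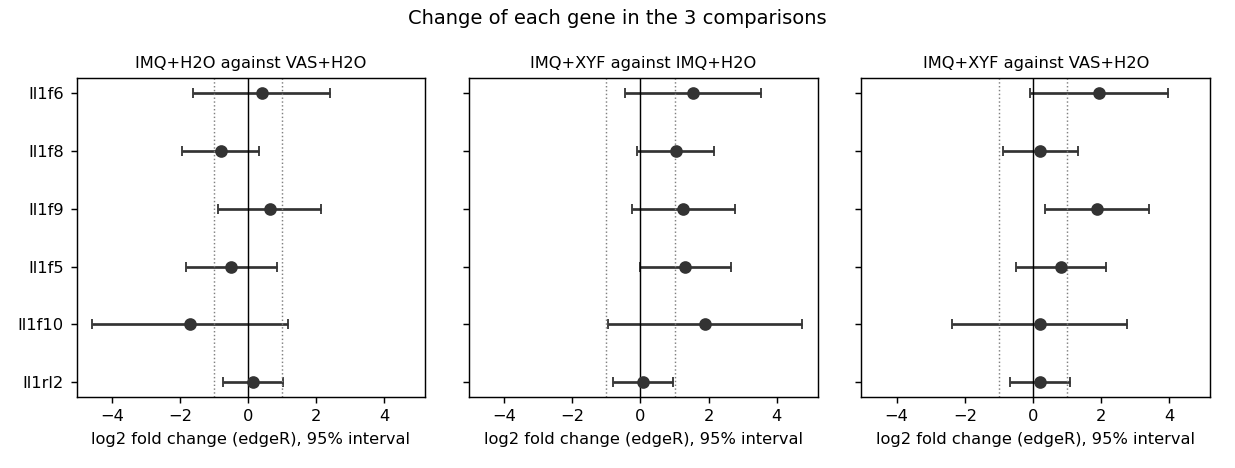
log2 fold change of each gene with its 95% interval from edgeR in the 3 comparisons; dotted lines mark the fold limit of 1 on either side. Every interval includes 0 except that of Il1f9 in IMQ+XYF against VAS+H2O, which runs from 0.34 to 3.42.

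Groups that do not overlap were counted over the 6 genes and over the whole table. In IMQ+H2O against VAS+H2O, 1 of the 6 (Il1f10) was lower in every library, against 16.5% of all genes tested. In IMQ+XYF against IMQ+H2O, 3 of the 6 (Il1f5, Il1f6 and Il1f8) were higher in every library, against 9.22% of all genes tested. In IMQ+XYF against VAS+H2O, 1 of the 6 (Il1f6) was higher, against 11.7%. The median log2 fold change of the 6 genes was -0.17, 1.29 and 0.53 in the 3 comparisons, and that of all genes tested was -0.02, 0.01 and -0.02. IMQ+H2O enters both of the first comparisons, so opposite signs there are not independent of each other. Without the first IMQ+XYF library, the log2 fold changes against IMQ+H2O were 0.74 for Il1f6, 0.45 for Il1f8, 0.86 for Il1f9 and 0.60 for Il1f5.

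The amounts of the different transcripts were compared per length, as CPM per kilobase of the union of annotated exons. In VAS+H2O the order by mean was Il1rl2 (8.16 ± 1.89), Il1f9 (3.89 ± 2.65), Il1f8 (3.0 ± 1.49), Il1f5 (2.93 ± 1.84), Il1f6 (1.17 ± 1.11) and Il1f10 (1.16 ± 0.154). The receptor stood above the rest in each of these libraries, whereas neighbours among the cytokine genes differed by less than the larger of their SDs. In IMQ+H2O the means were 9.07 ± 1.94 for Il1rl2, 5.96 ± 2.5 for Il1f9, 2.08 ± 0.373 for Il1f5, 1.71 ± 0.388 for Il1f8, 1.51 ± 0.437 for Il1f6 and 0.372 ± 0.323 for Il1f10. This order was the same in all 3 libraries, although the neighbours Il1f5 and Il1f8, and Il1f8 and Il1f6, differed by less than the larger of their SDs. In IMQ+XYF the order was Il1f9 (14.2 ± 7.86), Il1rl2 (9.49 ± 4.96), Il1f5 (5.20 ± 3.55), Il1f6 (4.39 ± 3.26), Il1f8 (3.47 ± 1.98) and Il1f10 (1.31 ± 1.74). Neighbours from Il1f9 to Il1f8 in that order differed by less than the larger of their SDs. Il1rl2 was first in all 6 libraries of VAS+H2O and IMQ+H2O, and Il1f9 was first in all 3 libraries of IMQ+XYF. The exon union of Il1f5 joins 7 transcripts and is 4493 bases long, against 1648 bases and 1 transcript for Il1f9, which lowers the value of Il1f5 per kilobase.

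The balance of agonists and antagonist was taken within each library, where the depth and the piece of tissue are shared. The summed agonists (Il1f6, Il1f8 and Il1f9) relative to Il1f5, in CPM per kilobase, gave ratios of 2.37, 3.35 and 2.49 in VAS+H2O. The ratios were 3.92, 4.13 and 5.07 in IMQ+H2O and 3.77, 3.74 and 5.94 in IMQ+XYF. All 6 libraries with imiquimod were above the 3 with vaseline, and the imiquimod groups overlapped. The means were 2.74 ± 0.533, 4.38 ± 0.613 and 4.48 ± 1.26 (SD, n = 3). For the ratio of any single gene tested to Il1f5, 2.84% of genes had all IMQ+H2O libraries above all VAS+H2O libraries, and 0.504% had all IMQ+XYF libraries above them. By itself, Il1f9 relative to Il1f5 was 0.985, 1.90 and 1.03 in VAS+H2O, 2.10, 2.65 and 3.74 in IMQ+H2O, and 2.27, 2.02 and 4.54 in IMQ+XYF. Il1f6 relative to Il1f5 likewise was higher in both imiquimod groups without overlap. Il1f8 relative to Il1f5 ran the other way, at 0.886, 1.12 and 1.37 in VAS+H2O, 0.968, 0.854 and 0.665 in IMQ+H2O, and 0.621, 0.783 and 0.704 in IMQ+XYF. It was lower in every IMQ+XYF library than in every VAS+H2O library, as were the ratios to Il1f5 of 4.11% of genes, and IMQ+H2O overlapped with both. The ratio has no test here, since it is a score over genes chosen with results known.

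**Figure D3:**
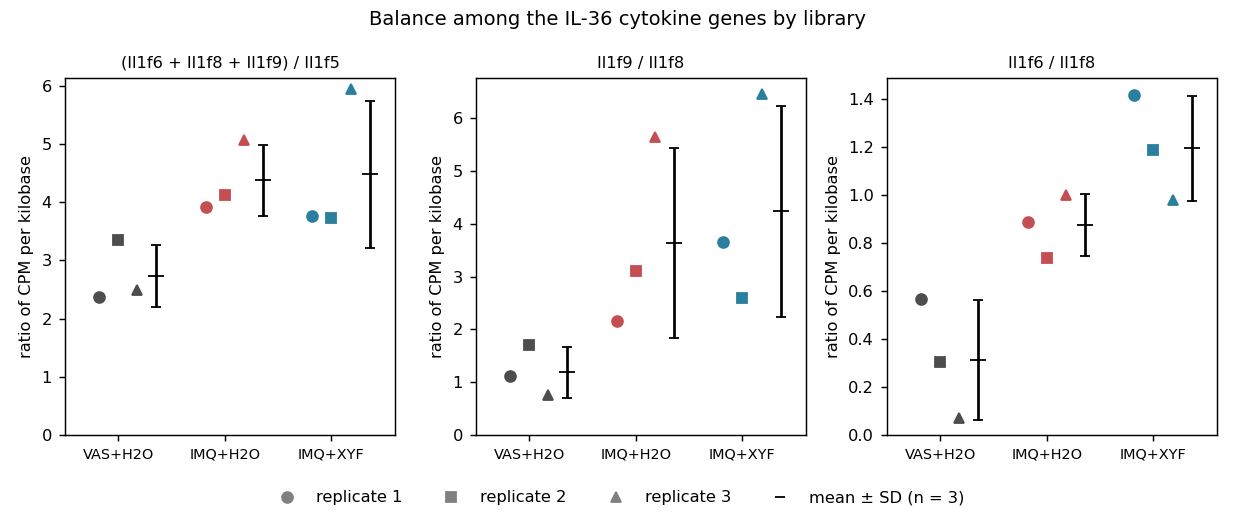
Ratios of CPM per kilobase in each library, by group, with the mean ± SD of 3 libraries: summed agonists to antagonist, Il1f9 to Il1f8, and Il1f6 to Il1f8. In all 3 panels the 6 imiquimod libraries lie above the 3 VAS+H2O libraries, and IMQ+H2O overlaps with IMQ+XYF.

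The agonists also differed among themselves. Il1f8 made up 37.3%, 33.3% and 54.9% of the summed agonists per kilobase in VAS+H2O, 24.7%, 20.7% and 13.1% in IMQ+H2O, and 16.5%, 21.0% and 11.9% in IMQ+XYF. The share was lower in every imiquimod library than in every vaseline library. The ratio of Il1f9 to Il1f8, chosen after these values were seen, was 1.11, 1.70 and 0.751 in VAS+H2O, 2.17, 3.10 and 5.63 in IMQ+H2O, and 3.65, 2.58 and 6.46 in IMQ+XYF. The ratio of Il1f6 to Il1f8 was 0.568, 0.303 and 0.0701, then 0.889, 0.738 and 0.999, then 1.42, 1.19 and 0.980 in the same order of groups. Neither ratio overlapped between VAS+H2O and an imiquimod group, and both overlapped between the imiquimod groups. Relative to Il1f8, 8.98% of all genes tested were higher in every IMQ+H2O library than in every VAS+H2O library. For IMQ+XYF against VAS+H2O the share was 1.10%.

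Markers of the epidermis also differed between the groups. The 10 keratinocyte markers, all detected, summed to between 3717 and 6453 CPM in VAS+H2O, 2215 and 3345 CPM in IMQ+H2O, and 3839 and 14603 CPM in IMQ+XYF. The highest sum was in the first IMQ+XYF library, and the sums of IMQ+XYF and IMQ+H2O did not overlap. Taken singly, 3 of the 10 markers were higher without overlap in IMQ+XYF against IMQ+H2O, beside 9.22% of all genes tested. Krt15 was not higher, with means of 142 CPM in IMQ+H2O and 140 CPM in IMQ+XYF. Between these groups 7 of the 10 markers were higher at an unadjusted p under 0.05, as were 6.35% of all genes tested, and 0 were called by edgeR. Their median log2 fold change was 1.41. The 6 markers of hyperplastic keratinocytes, among them the stress keratins Krt6b and Krt16, summed to 230 to 381 CPM, 507 to 824 CPM and 613 to 3115 CPM in the 3 groups. Of these 6, edgeR called 4 higher in IMQ+XYF against VAS+H2O (Krt6b, Krt16, Sprr1b and Sprr2d), beside 0.695% of all genes tested. Their part in the levels of the IL-36 genes was not tested.

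Relative to keratinocyte markers, the cytokine genes other than Il1f9 overlapped between groups. Il1f9 was at 1.67, 1.58 and 0.433 CPM per 1000 CPM of keratinocyte markers in VAS+H2O, 3.47, 2.16 and 5.65 in IMQ+H2O, and 2.37, 2.41 and 5.16 in IMQ+XYF. Both imiquimod groups were above VAS+H2O, by a scale chosen after the data were seen. On this scale 48.1% of all genes tested were higher without overlap in IMQ+H2O against VAS+H2O and 0.927% in IMQ+XYF against VAS+H2O. Il1f5 was at 4.62, 2.27 and 1.15, at 4.51, 2.23 and 4.12, and at 2.85, 3.25 and 3.10 in the 3 groups. Its IMQ+XYF values thus lay within the range of both other groups. Il1rl2 on this scale was at 9.25, 10.2 and 16.0, at 21.4, 21.9 and 25.1, and at 6.50, 7.35 and 13.8. It was lower in every IMQ+XYF library than in every IMQ+H2O library, as were 57.4% of all genes tested.

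Across the 9 libraries, which share the group structure and the first IMQ+XYF library with its high values, log2 CPM of the genes was compared as a description. Il1f5 followed Il1f8 with a Pearson r of 0.93, Il1f6 with 0.89 and Il1f9 with 0.82. Il1f9 and Il1f8 had an r of 0.60, and Il1rl2 reached at most 0.37 with any of the 5 cytokine genes. With the summed keratinocyte markers, Il1f8 had an r of 0.79, Il1f5 0.74, Il1f10 0.60, Il1f9 0.52, Il1rl2 0.48 and Il1f6 0.45. Without the first libraries of IMQ+H2O and IMQ+XYF, which had the most distant sums, these became 0.75, 0.47, 0.49, 0.17, 0.03 and 0.13. The relation thus changed least for Il1f8, and for Il1f9, Il1rl2 and Il1f6 it rested mostly on those libraries.

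The genes most like each member by this measure were taken out of 13687 with at least 100 counts on average. They included known genes of the epidermis for Il1f8, Il1f5 and Il1f9. Il1f8 was closest to Lor (r = 0.98), which encodes loricrin of the cornified envelope, Asprv1 (0.98), a protease of the granular layer, and Bglap3 (0.96). Il1f5 was closest to Klk5 (0.97), a kallikrein of epidermal shedding, Wfdc5 (0.97) and Acp7 (0.96). Il1f9 was closest to Sdcbp2 (0.95), Ctu2 (0.95) and Klk7 (0.94), a further kallikrein of the skin. By Spearman rho, Klk7 had 0.60 with Il1f9, whose closest genes were then Tpr, Senp5 and Orc4. Il1f6 was closest to Atp13a4 (0.93), Serpinb3a (0.92) and Slc25a13 (0.91). Il1f10, whose counts were too sparse for a firm order, was closest to Ap1ar (0.98), Ankrd13c (0.96) and Tmem30b (0.95).

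The receptor gene had other neighbours by Pearson r. Il1rl2 was closest to Dctn3 (r = 0.98), Cfd (0.97), which encodes adipsin, and Lep (0.96), which encodes leptin, both products of adipocytes. After Lep and Cfd were seen there, 6 adipocyte genes were examined. Adipoq, the adiponectin gene, was at 15.5, 35.2 and 28.9 CPM in VAS+H2O, 18.5, 35.6 and 20.2 CPM in IMQ+H2O, and 37.0, 12.4 and 29.7 CPM in IMQ+XYF. The lowest and highest values of Adipoq fell in the same libraries as those of Il1rl2, whereas Plin1, Cidec and Retn were highest in other libraries. Among the other adipocyte genes of that list, r with Il1rl2 was 0.91 for Adipoq, 0.90 for Cidec, 0.85 for Plin1 and 0.76 for Retn. Like Lep and Cfd, each was lowest in IMQ+XYF library 2, so these r are not independent of that choice. These 4 genes, without Lep and Cfd, summed to 46.8 to 105 CPM, 54.3 to 114 CPM and 35.4 to 114 CPM in the 3 groups. Their sum had an r of 0.93 with Il1rl2 over the 9 libraries, and 0.80 over 7 libraries without the first of VAS+H2O and the second of IMQ+XYF. For the 5 cytokine genes r with that sum lay between -0.17 and 0.23. The adipocyte list was drawn up after these values could be seen, so they are a description. The sum of 7 dendritic and Langerhans cell markers, cells in which Il1rl2 is known, had an r of 0.75 with Il1rl2, and 0.57 without the second libraries of IMQ+H2O and IMQ+XYF. T cell markers had 0.66, and monocyte and macrophage markers 0.55, which became 0.69 and 0.57 without the 2 libraries with the most distant sums of each. The part of fat tissue in the level of Il1rl2 was not tested.

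**Figure D4:**
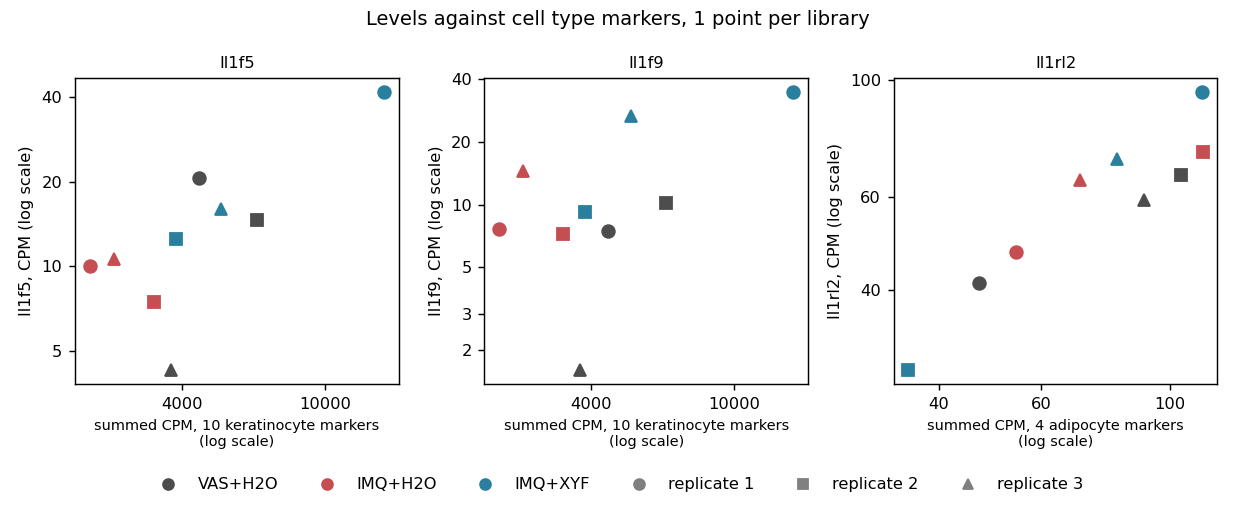
Level of Il1f5 and Il1f9 against the summed CPM of 10 keratinocyte markers, and of Il1rl2 against that of 4 adipocyte markers (without Lep and Cfd), both axes on a log scale, 1 point per library. The adipocyte list was drawn up after the likeness of Il1rl2 to Lep and Cfd was seen. Il1rl2 is lowest, at 28.2 CPM, in the library with the lowest adipocyte sum.

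Receptor signalling genes downstream of Il1rl2 were called in no comparison, with 0 of 25 higher or lower in each. Of all genes tested, 0.994%, 0.00892% and 1.20% were called in the 3 comparisons. The median log2 fold changes of the 25 genes were -0.03, 0.10 and 0.00. Il1rap, the shared second chain of the receptor, was at 54.8 ± 12.2, 68.8 ± 11.2 and 60.2 ± 18.7 CPM in the 3 groups. Myd88, the adaptor, was at 62.5 ± 11.3, 74.3 ± 5.15 and 80.7 ± 10.3 CPM. Nfkbiz, which encodes an NF-kB cofactor, had log2 fold changes of -0.50 ± 0.21 by imiquimod and 0.50 ± 0.21 for IMQ+XYF against IMQ+H2O, with edgeR adjusted p of 0.230 and 0.417. Irak3, a brake on this pathway, was 0.66 ± 0.13 higher on the log2 scale in IMQ+H2O than in VAS+H2O, with an edgeR adjusted p of 0.0540. Irak4 was 0.45 higher, Nfkbia had a log2 fold change of -0.34, and Fos and Jun had -0.73 and -0.78. None of these 4 passed.

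Among the proteases known to trim IL-36 proteins and their inhibitors, 2 of the 8 tested were called higher in IMQ+H2O against VAS+H2O. Both were inhibitors, and 0.646% of all genes tested were called higher there. The fitted value was higher for 5 of the 8, including the protease gene Prtn3 at 1.11 ± 0.62, which did not pass. Slpi, the secretory leukocyte protease inhibitor, was at 4.15, 6.42 and 3.52 CPM in VAS+H2O, 18.5, 19.2 and 29.2 CPM in IMQ+H2O, and 48.0, 30.6 and 59.5 CPM in IMQ+XYF. Slpi was higher without overlap in IMQ+XYF than in either other group. Of all genes tested, 9.22% were higher without overlap in IMQ+XYF against IMQ+H2O and 11.7% in IMQ+XYF against VAS+H2O. The log2 fold change of Slpi against VAS+H2O was 2.26 ± 0.32 in IMQ+H2O and 3.30 ± 0.33 in IMQ+XYF, with edgeR adjusted p of 0.0247 and 0.0117. Serpina3n, a further serine protease inhibitor, rose by 2.26 ± 0.29 and 2.06 ± 0.29, with edgeR adjusted p of 0.0177 and 0.0220. None of the list was called between IMQ+XYF and IMQ+H2O. Of the proteases, Ctsg (cathepsin G) was at 1.62 ± 0.0929, 0.419 ± 0.204 and 0.914 ± 0.423 CPM, with an edgeR adjusted p of 0.0668 for IMQ+H2O against VAS+H2O. Prtn3 (proteinase 3) was at 0.288 ± 0.194, 0.604 ± 0.285 and 0.583 ± 0.281 CPM. Ctss (cathepsin S) was at 116 ± 33.8, 152 ± 55.9 and 103 ± 8.46 CPM. Elane, the neutrophil elastase gene, had at most 7 counts in any library and did not enter the test.

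Several genes that IL-36 is known to induce were called, although other cytokines of psoriatic skin induce many of them as well. Of 17 tested, 5 rose in IMQ+H2O against VAS+H2O and 6 in IMQ+XYF against VAS+H2O, with 0 called lower and 0 called between the imiquimod groups. Of all genes tested, 0.646% and 0.695% were called higher in these comparisons with VAS+H2O. The medians were 2.08, -0.17 and 1.75 in the 3 comparisons, in the order used above. The neutrophil-attracting chemokine genes Cxcl3 and Cxcl5 rose by 5.89 and 8.44 on the log2 scale with imiquimod. S100a8 and S100a9, which encode the calprotectin subunits, rose by 5.22 and 5.20, and Lcn2, which encodes lipocalin 2, by 3.22. Ccl20, the ligand of Ccr6, was at 2.01, 3.72 and 1.21 CPM in VAS+H2O, 13.2, 11.5 and 12.5 CPM in IMQ+H2O, and 141, 25.7 and 30.0 CPM in IMQ+XYF. edgeR called it in IMQ+XYF against VAS+H2O alone, at 4.85 ± 0.75 with an edgeR adjusted p of 0.0273. Csf3 and Defb14 had log2 fold changes of 2.05 and 2.23 by imiquimod that did not pass. Neutrophil markers moved with this list, since their 6 genes summed to 4.15 to 8.70 CPM in VAS+H2O, 48.6 to 152 CPM in IMQ+H2O and 33.6 to 77.3 CPM in IMQ+XYF. Their part in the response genes was not tested.

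Of 10 genes for known inducers of IL-36 and their receptors, none was called, beside 0.994%, 0.00892% and 1.20% of all genes tested in the 3 comparisons. Il17a and Il22 had 0 counts in every VAS+H2O library and at most 18 and 24 counts in any other library. Il22ra1, a chain of the IL-22 receptor, was at 5.94, 7.17 and 4.74 CPM in VAS+H2O, 1.79, 3.25 and 2.59 CPM in IMQ+H2O, and 12.0, 3.44 and 3.0 CPM in IMQ+XYF. The IMQ+H2O libraries lay below all of VAS+H2O, as they did for 16.5% of all genes tested. The log2 fold change of Il22ra1 was -1.22, with an edgeR adjusted p of 0.229. At an unadjusted p under 0.05 in edgeR, 3 of the 10 genes were higher and 1 was lower in IMQ+H2O against VAS+H2O. Of all genes tested, 20.9% passed that mark in either direction. Tlr7, Il17rc and Il10rb had values of -0.38, -0.18 and 0.13 in that comparison, and -0.44, 0.73 and -0.50 for IMQ+XYF against IMQ+H2O.

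Of the 11 other IL-1 family genes, Il33 alone was called, beside 0.994%, 0.00892% and 1.20% of all genes tested in the 3 comparisons. Il33 encodes an alarmin and was at 17.5 ± 5.08, 92.0 ± 33.0 and 80.9 ± 40.3 CPM in the 3 groups. Il33 rose by 2.39 ± 0.43 in IMQ+H2O and by 2.21 ± 0.42 in IMQ+XYF against VAS+H2O, with edgeR adjusted p of 0.0407 and 0.0431. Il1a, an agonist of the IL-1 receptor made by keratinocytes, was at 0.170, 2.47 and 0.456 CPM in VAS+H2O, 3.24, 2.6 and 4.53 CPM in IMQ+H2O, and 12.7, 5.02 and 16.1 CPM in IMQ+XYF. The group means of Il1a were in the same order as those of Il1f9, whose groups overlapped. Il1a was higher without overlap in IMQ+XYF against IMQ+H2O and against VAS+H2O, as were 9.22% and 11.7% of all genes tested. The nearest IMQ+H2O and VAS+H2O libraries were at 2.6 and 2.47 CPM. IMQ+XYF against VAS+H2O gave 3.49 ± 0.85 with an edgeR adjusted p of 0.0744. Il1b had log2 fold changes of 1.55 ± 0.69, -0.40 ± 0.67 and 1.16 ± 0.68 in the 3 comparisons, and Il1rn, the IL-1 receptor antagonist gene, had 0.69, 0.40 and 1.08. The decoy receptor gene Il1r2 and the IL-33 receptor gene Il1rl1 had 0.81 and 0.75 by imiquimod. The median of the list was 0.80, -0.19 and 0.71, beside -0.17, 1.29 and 0.53 for the IL-36 genes.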

How the data were processed

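RNA sequencing was performed by the authors on 9 libraries of mouse ear dermis. The deposited table holds whole-number counts of reads per Ensembl gene, with no normalization. Per the labels and the study's methods, libraries were prepared with a TruSeq kit, described as strand-specific, and the authors aligned reads with STAR (version 2.5) to GRCm38. The counting tool and its use of strand were not given in the sources used here. The labels and the study's methods give once-daily gavage, whereas its figure legend for the ear model gives more than 1 gavage a day.

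Groups followed the sample titles. Counts were tested with edgeR 4.0.16 in R 4.3.3 after filterByExpr (22430 genes kept, 16554 genes without any count) and TMM scaling. A single quasi-likelihood model took all 9 libraries, with group as the only term, and its common biological coefficient of variation was 0.296. P-values were adjusted by Benjamini-Hochberg over all genes tested. DESeq2 1.42.0, the tool of the study's methods, was an alternative. Standard errors are of log2 fold changes, and log2 CPM used a prior count of 2. The floor of 3 counts corresponded to 0.0373 to 0.103 CPM and covers counting error only. No pair of replicates was a repeated library, since chi-squared over degrees of freedom was at least 36.1 between them. Scripts were tested on simulated counts.

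The members and gene lists were chosen with earlier results of these data known. All 6 members were named. List genes were named where called, where among the 3 largest changes of their list, or where listed by name (Il1rap, Myd88, Nfkbiz, Ctsg, Elane, Prtn3, Ctss, Il1a, Il1b and Il1rn). Cst3 and Serpinb1a were added as inhibitor genes that were not higher. For each member, the 3 genes with the highest r were named. Alternatives were DESeq2, RLE size factors, no filter, the libraries of a comparison only, a replicate block, other call limits and leaving out each library.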

Additional observations from a re-analysis of the deposited data

How the results depend on the processing

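Over 16 alternatives for each of 18 log2 fold changes of the IL-36 genes, 276 of 288 values kept their direction and their side of the threshold, 11 changed sign and 1 passed the threshold. The last was Il1f9 in IMQ+XYF against VAS+H2O under DESeq2, at 1.91 with an adjusted p of 0.0324, which raised the number of members called there from 0 to 1. Over its alternatives the adjusted p of that value ran from 0.0324 to 0.409. With the replicate number as a replicate block, Il1f10 in IMQ+XYF against VAS+H2O turned from 0.20 to -0.99. The block called 0 members and 86, 0 and 54 genes of the table, in place of 223, 2 and 270. Samples with the same number deviated from their group means with r from -0.18 to 0.12. These values gave no sign of pairing, but they cannot show whether such samples share more than a number. The other changes of sign came from leaving out 1 library. The ranges in IMQ+H2O against VAS+H2O were -0.19 to 1.43 for Il1f6, negative without the third VAS+H2O library, and -0.025 to 0.31 for Il1rl2, negative without the first. In IMQ+XYF against IMQ+H2O they were -0.23 to 2.45 for Il1f10 and -0.32 to 0.45 for Il1rl2. In IMQ+XYF against VAS+H2O they were -0.35 to 0.51 for Il1f8, -1.92 to 0.74 for Il1f10 and -0.17 to 0.63 for Il1rl2. The lowest value of these 5 ranges was each without the first IMQ+XYF library. The cause was not tested.

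Counts of genes called over the whole table moved by more than 1.5 times. DESeq2 called 952, 222 and 722 genes, the libraries of a comparison alone gave 496, 1 and 33, and an adjusted p limit of 0.1 gave 620, 2 and 523. No fold limit gave 308, 2 and 453. Leaving out 1 library gave 25 to 455, 0 to 4 and 12 to 592. On CPM without division by length, the ratio of summed agonists to Il1f5 was 0.844, 1.40 and 1.43 in place of 2.74, 4.38 and 4.48, since Il1f5 has the longest exon union of the cytokine genes. Of the 18 genes named as most like a member, 5 were shared with a ranking by Spearman rho. Depth limits Il1f10 and Il1f6, whose lowest counts were 0 and 6.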
